A study of Mus musculus with 48 samples.

Results

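The 32 tumours described here are the most and the least Mki67-rich of 48 pretreatment mouse tumours, taken from both ends of each of the study's 4 groups. Mki67 encodes Ki-67, a protein that coats mitotic chromosomes, is made in cycling cells and is lost when cells rest. In each group of 12, the libraries were ordered by Mki67 CPM, the gene's count per 1000000 counts of its library. The tumours were chosen by this value: the 4 highest were called Mki67-high and the 4 lowest Mki67-low. This gave 16 Mki67-high tumours, 16 Mki67-low tumours and 16 tumours in neither arm. The arms are not groups of the study: they were cut from a value measured in the same libraries. Mki67 was therefore left out of every count of genes, and its own values are given as a description only.

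The tumours grew under the skin of female BALB/c mice, 8 to 9 weeks old, from injected cells of either AB1, a mouse mesothelioma line, or Renca, a mouse kidney cancer line. Whole tumours were cut out 8 days (AB1) or 10 days (Renca) after injection, at the pretreatment time point of a course of anti-CTLA4 plus anti-PDL-1, 2 antibodies that block T cell checkpoints. Mice were later labelled responder or non-responder, so the groups were AB1 responders, AB1 non-responders, Renca responders and Renca non-responders, with 12 mice in each and 4 of each in either arm. All hosts shared strain and sex, every tumour was a mixture of implanted cells and host cells, and each library came from its own mouse.

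Cells that enter division switch on genes in waves. E2F transcription factors and the cyclin E kinase start the production of the replication machinery before S phase. Later the DREAM and MuvB complexes, with B-Myb and FoxM1, release and then raise the genes of mitosis, many of which carry a CHR element (cell cycle genes homology region) and CCAAT boxes in their promoters. In a whole tumour the amount of such RNA depends both on the share of cells that cycle and on how much each of them makes, and fewer cells of a type cannot be told apart from less RNA per cell. The same holds for every cell type marker below.

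Among AB1 non-responders, Mki67 stood at 559 to 611 CPM in the Mki67-high tumours (median 577) and at 177 to 485 CPM in the Mki67-low ones (median 392). In AB1 responders it stood at 411 to 494 CPM (median 444) in the high tumours, against 288 to 334 CPM (median 330) in the low ones. The Renca groups were closer together. Renca non-responders had 306 to 357 CPM (median 322) in the high arm and 239 to 274 CPM (median 251) in the low arm, and Renca responders had 276 to 326 CPM (median 300.5) in the high arm and 202 to 239 CPM (median 221) in the low arm. The cuts passed between close neighbours. The last tumour inside the high arm and the first outside it had 559 and 557 CPM in AB1 non-responders, 411 and 401 CPM in AB1 responders, 306 and 305 CPM in Renca non-responders, and 276 and 275 CPM in Renca responders. At the low cut the last tumour inside and the first outside had 485 and 514, 334 and 342, 274 and 279, and 239 and 243 CPM in the same order of groups.

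Library totals, in units of 1000000 counts, averaged 22.8 ± 2.98 in Mki67-high tumours and 22.2 ± 1.45 in Mki67-low tumours (SD, n = 16 each; two-sided permutation test within groups, adjusted p = 0.578). RNA 260/230, an absorbance ratio of purity, averaged 2.12 ± 0.098 in Mki67-high and 1.97 ± 0.321 in Mki67-low tumours (SD, n = 16 each). By the same permutation test its unadjusted p was 0.0506 and its adjusted p 0.253. AB1 non-responder 3, a Mki67-low tumour, stood apart. It had the lowest Mki67 level of all (177 CPM), the lowest 260/230 (1.08) and 260/280 (1.90) of the 32 libraries, and 1068 CPM of summed skin genes. AB1 non-responder 7, also Mki67-low, had 495 CPM of skin genes, and the other 30 libraries had at most 52.1 CPM. Results are therefore given with and without AB1 non-responder 3. Flow cells were also unequal between the arms: on the first AB1 flow cell there were 4 Mki67-high and 1 Mki67-low tumours, and on the second 4 and 7, while the first Renca flow cell held 4 and 5 and the second 4 and 3. The Mki67-low tumour on the first AB1 flow cell was AB1 non-responder 3. Fits without it therefore have no Mki67-low tumour on that flow cell. The labelled tissues were checked by their markers. Renal tubule genes summed to 278 to 446 CPM in Mki67-high and 217 to 409 CPM in Mki67-low Renca tumours, and to at most 10.4 CPM in AB1. Mesothelium genes, of which 2 of the 5 in the table passed the filter, were near 0 in AB1: they summed to 0.251 to 2.08 CPM in Mki67-high and 0.931 to 17.7 CPM in Mki67-low tumours.

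Across the 32 tumours, most listed genes of DNA replication and mitosis were higher in the Mki67-high arm. Lower calls were fewer in the other lists: 5 of 9 MHC class II, 4 of 15 NK and cytotoxic, 2 of 20 T cell and 2 of 13 skeletal muscle genes. Of 15689 genes tested by edgeR's quasi-likelihood F test with group as a term, 1507 (9.61%) were higher and 1069 (6.81%) lower at a Benjamini-Hochberg adjusted p under 0.05. The rises were small. Their median log2 fold change was 0.19 and 2 of them reached 1, whereas the falls had a median of -0.33 and 84 of them reached -1. Without AB1 non-responder 3, 1398 (8.87%) were higher and 935 (5.93%) lower. When flow cell was also a term in that fit, 712 (4.52%) were higher and 226 (1.43%) lower.

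The 9 lists of replication, mitosis and repair genes (180 symbols, of which 160 were in the table and all 160 were tested) held 145 genes that rose and 0 that fell. Their median log2 fold change was 0.35, and the range was -0.11 to 0.55, beside a median of -0.01 over all tested genes. As the lists hold the textbook partners of Mki67, which chose the tumours, the count describes how closely they went with it. Without AB1 non-responder 3 the count was 143, and with flow cell also a term it was 134. Within the first flow cells the 160 genes had a median log2 fold change of 0.38 and within the second 0.37. In the first flow cells AB1 non-responder 3 was the only Mki67-low AB1 tumour, so the AB1 part of that median rests on it. By edgeR 0 of the 160 were called in the first flow cells (0.00% of all genes, 104 of the 160 at an unadjusted p under 0.05) and 124 in the second (2.15% of all genes). In non-responders alone 0 were called by edgeR (0.00% of all genes), with 139 of the 160 at an unadjusted p under 0.05. The 15 members that did not pass were Ccnd2, Ccnd3, Cdk6, E2f1, E2f2, Cdc7, Cdt1, Gins4, Fen1, Pold3, Rfc2, H2afx, Suv39h1, Wee1 and Fanca. Their log2 fold changes lay between -0.11 and 0.18.

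**Figure D1:**
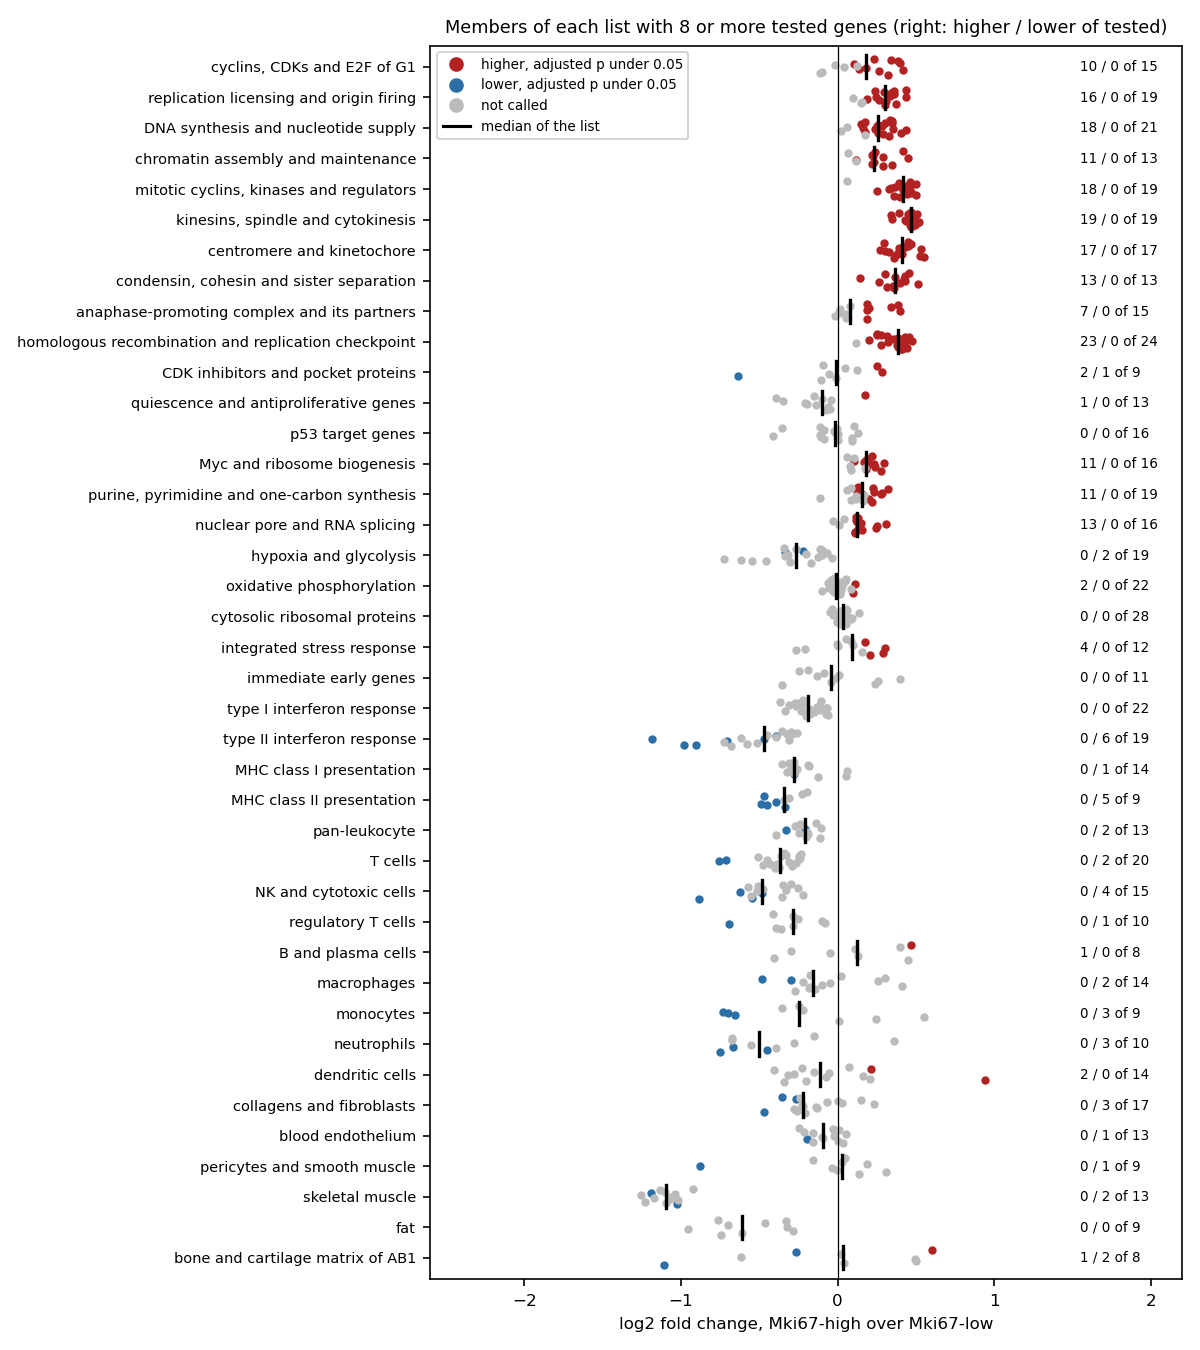
Log2 fold change of Mki67-high over Mki67-low tumours (x axis) for every tested member of each list with 8 or more tested genes (rows), red where higher and blue where lower at an adjusted p under 0.05, grey where not called, with the list's median as a black bar. The kinesin, centromere and condensin lists are red throughout (19 of 19, 17 of 17 and 13 of 13), while p53 targets and ribosomal proteins have no called member.

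Promoters of 4 members are shown because each had the smallest p of its list among genes with a RefSeq promoter: Ttk of the mitotic kinases, Nusap1 of the spindle genes, Ticrr of origin licensing and Pola1 of DNA synthesis. Each runs 250 bases before to 50 bases after the RefSeq start on GRCm38.p6 and is written 5′ to 3′ on the gene's strand. Capitals mark matches, on either strand, to the CHR core TTTGAA, to the CCAAT box, or to the E2F-like motif TTTNNCGC.
Ttk, chr9:83834439-83834738, plus strand: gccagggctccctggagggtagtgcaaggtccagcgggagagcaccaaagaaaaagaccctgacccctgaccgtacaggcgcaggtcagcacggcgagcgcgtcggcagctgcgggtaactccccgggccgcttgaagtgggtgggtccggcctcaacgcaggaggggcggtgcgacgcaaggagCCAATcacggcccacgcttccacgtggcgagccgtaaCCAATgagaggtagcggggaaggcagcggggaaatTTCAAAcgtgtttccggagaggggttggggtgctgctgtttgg
Nusap1, chr2:119618048-119618347, plus strand: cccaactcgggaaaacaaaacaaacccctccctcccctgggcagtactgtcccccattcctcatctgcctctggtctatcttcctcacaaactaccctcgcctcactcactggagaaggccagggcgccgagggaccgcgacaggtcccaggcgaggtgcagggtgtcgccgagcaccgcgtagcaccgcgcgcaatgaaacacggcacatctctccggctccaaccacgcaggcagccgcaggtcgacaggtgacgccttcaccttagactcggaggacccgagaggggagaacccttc
Ticrr, chr7:79659946-79660245, plus strand: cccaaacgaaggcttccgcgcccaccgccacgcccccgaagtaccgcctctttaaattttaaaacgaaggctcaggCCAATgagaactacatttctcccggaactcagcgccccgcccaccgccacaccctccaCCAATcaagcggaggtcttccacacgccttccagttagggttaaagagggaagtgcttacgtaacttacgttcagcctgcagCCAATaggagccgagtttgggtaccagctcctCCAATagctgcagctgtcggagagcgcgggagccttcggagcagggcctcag
Pola1, chrX:93632106-93632405, minus strand: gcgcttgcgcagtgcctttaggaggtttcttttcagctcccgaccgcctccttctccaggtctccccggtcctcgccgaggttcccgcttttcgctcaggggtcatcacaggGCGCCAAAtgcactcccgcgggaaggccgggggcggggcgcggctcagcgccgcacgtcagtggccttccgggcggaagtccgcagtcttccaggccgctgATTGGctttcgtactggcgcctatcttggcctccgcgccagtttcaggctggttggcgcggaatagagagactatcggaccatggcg

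The Ttk promoter held 1 CHR core and 2 CCAAT boxes, that of Ticrr 4 CCAAT boxes, and that of Pola1 1 CCAAT box and 1 E2F-like match. No match lay in the Nusap1 window. A promoter was matched for 10167 of the 15689 tested genes. The CHR core was present in 64.9% of the 57 promoters of the mitosis lists, in 25.6% of the 43 promoters of the replication lists, and in 12.6% of all 10167. The CCAAT box was present in 71.9%, 62.8% and 38.4% of the same sets, and the E2F-like motif in 15.8%, 37.2% and 7.87%. Over all 1081 higher genes with a promoter, cell cycle lists included, the shares were 19.9% for the CHR core, 45.2% for CCAAT and 14.1% for the E2F-like motif. Over the 792 lower genes they were 8.46%, 35.5% and 5.30%. A match is a run of letters and not a measured binding site, and the sets were not tested against each other.

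The genes of the G1 phase, which decide whether a cell starts a cycle, had the lowest median of the 9 lists: 10 of 15 rose, with a median log2 fold change of 0.18. Ccne2, a cyclin E that drives entry into S phase, had 12.5 to 30.3 CPM in Mki67-high tumours (median 22.8), against 8.52 to 22.5 CPM in Mki67-low tumours (median 17.4). All 16 high tumours lay above the low median of their own group, and the log2 fold change was 0.42 ± 0.07 (SE; adjusted p = 0.000538). Skp2, which directs the CDK inhibitor p27 to degradation, rose by 0.34 ± 0.06 (adjusted p = 0.000679), with no overlap between the arms in any of the 4 groups. The early cyclin Ccnd1 had 144 to 447 CPM (median 229) in the high arm and 113 to 357 CPM (median 166) in the low arm, and rose by 0.32 ± 0.08 (adjusted p = 0.0082). Its estimate was 0.55 in AB1 alone and 0.08 in Renca alone. The other D cyclins, Ccnd2 (-0.11 ± 0.08, adjusted p = 0.364) and Ccnd3 (-0.10 ± 0.05, adjusted p = 0.161), did not pass. Of the E2F factors, the repressors E2f7 (0.40) and E2f8 (0.39) passed, as did E2f3 (0.11), whereas the activator E2f1 did not (0.12 ± 0.04, adjusted p = 0.0557).

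Replication genes rose in both of their lists: 16 of 19 licensing and origin firing genes (median 0.30) and 18 of 21 genes of DNA synthesis and nucleotide supply (median 0.26). Mcm10, which helps turn the loaded helicase into an active one, had 22.7 to 37.3 CPM in Mki67-high tumours (median 29.8), against 10.6 to 28.6 CPM in Mki67-low tumours (median 22.01). The arms did not overlap within any group, and the log2 fold change was 0.44 ± 0.07 (adjusted p = 0.000487). Ticrr, the treslin subunit that starts origin firing, rose by 0.44 ± 0.07 (adjusted p = 0.000487). Pola1, the catalytic subunit of the primase polymerase, had 33.2 to 55.7 CPM (median 41.4) in the high arm, against 19.7 to 42.4 CPM (median 31.3) in the low arm, and rose by 0.40 ± 0.07 (adjusted p = 0.00054). Of the ribonucleotide reductase subunits, which make deoxynucleotides, Rrm1 rose by 0.35 ± 0.06 (adjusted p = 0.000734) and Rrm2 by 0.31 ± 0.08 (adjusted p = 0.00835). Pcna, the sliding clamp of the polymerases, had a median of 322 CPM in Mki67-high and 267 CPM in Mki67-low tumours and rose by 0.26 ± 0.05 (adjusted p = 0.00157).

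Chromatin genes copied with the DNA rose in 11 of 13 cases (median 0.23), among them Uhrf1, which reads half-methylated DNA (0.42 ± 0.08, adjusted p = 0.00148), and Ezh2, a histone H3 methyltransferase (0.23 ± 0.04, adjusted p = 0.00096). Of the homologous recombination and replication checkpoint genes 23 of 24 rose, with a median of 0.39. Blm, the Bloom syndrome helicase, had 15.8 to 32.6 CPM in Mki67-high tumours (median 22.5) and 12.0 to 25.7 CPM in Mki67-low tumours (median 16.7). The arms of each group were separate, and the change was 0.44 ± 0.06 (adjusted p = 0.000427).

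Of the 9 lists, those of spindle genes, mitotic regulators and centromere genes had the highest medians. All 19 kinesin, spindle and cytokinesis genes rose (median 0.47), as did all 17 centromere and kinetochore genes (0.41), all 13 condensin, cohesin and separation genes (0.37) and 18 of 19 mitotic cyclins, kinases and regulators (0.42). Top2a, the topoisomerase that untangles sister chromatids (chromosome 11, 98992943 to 99024189, minus strand), had 291 to 530 CPM in Mki67-high tumours (median 378), against 178 to 390 CPM in Mki67-low tumours (median 269). Each group on its own was fully separated: the AB1 responders, for example, had 373, 407, 417 and 472 CPM in the high arm and 249, 258, 270 and 282 CPM in the low arm. The log2 fold change was 0.46 ± 0.07 (adjusted p = 0.000487). Without AB1 non-responder 3, whose Top2a level of 178 CPM was the lowest, it was 0.41 (adjusted p = 2.92e-06).

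Cenpe, the kinesin-like motor that carries chromosomes to the spindle equator, had 56.4 to 150 CPM in Mki67-high tumours (median 85.0) and 37.8 to 113 CPM in Mki67-low tumours (median 53.4). Its change of 0.55 ± 0.09 (adjusted p = 0.000487) was the highest among the 160 cell cycle genes. Ccnb1, cyclin B1, the partner of Cdk1 at mitotic entry, had 55.4 to 119 CPM (median 67.6), against 37.7 to 87.4 CPM (median 50.8), and rose by 0.47 ± 0.08 (adjusted p = 0.000487). Both genes were separate in all 4 groups. Ttk, the Mps1 kinase of the spindle checkpoint, rose by 0.46 ± 0.07 and Bub1, its partner in that checkpoint, by 0.50 ± 0.08 (adjusted p = 0.000487 for both). Kif14 (0.52 ± 0.09), Prc1 (0.51 ± 0.08) and Nusap1 (0.45 ± 0.07), which bundle or cross-link spindle microtubules, reached the same adjusted p. Plk1 (0.39 ± 0.11, adjusted p = 0.013) and Foxm1 (0.37 ± 0.08, adjusted p = 0.00362) passed with wider errors.

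The anaphase-promoting complex, a list kept apart from the 9, which ends mitosis by marking cyclins for degradation, was divided. Of its 15 genes 7 rose (median of the list 0.08). The activator Cdc20 (0.40), the ubiquitin-conjugating enzyme Ube2c (0.39) and the inhibitor Fbxo5 (0.34) were among them, with Anapc1, Cdc23, Cdc27 and Ube2s at 0.19 to 0.20. The other 8, Anapc2, Anapc4, Anapc5, Anapc10, Anapc11, Cdc16, Cdc26 and the activator Fzr1, had values between -0.02 and 0.08 and did not pass.

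**Figure D2:**
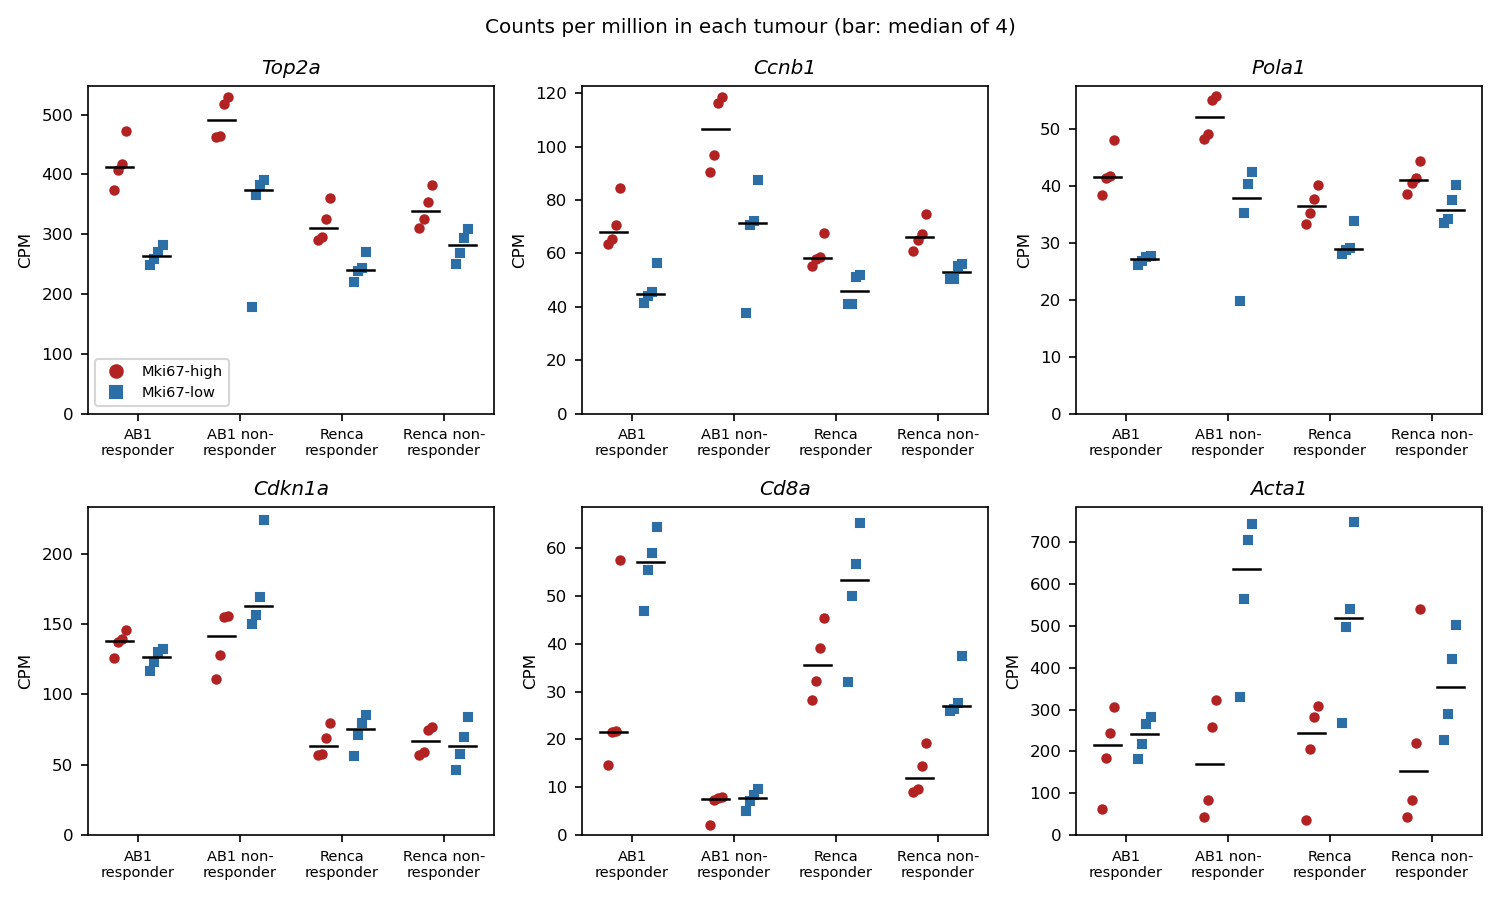
CPM (y axes) of 6 genes in each tumour of the 4 groups, Mki67-high as red circles and Mki67-low as blue squares, with black bars at the median of 4. Top2a and Ccnb1 are separate in every group, Pola1 overlaps in both Renca groups, Cdkn1a overlaps in each group, and Cd8a and Acta1 lie lower in most Mki67-high tumours.

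Among genes that hold the cycle back, calls went both ways. Of 9 CDK inhibitors and pocket proteins 2 rose and 1 fell, beside 9.61% higher and 6.81% lower of all tested genes. Cdkn1a, the p21 inhibitor induced by p53, had 56.8 to 156 CPM in Mki67-high tumours (median 95.6) and 46.2 to 224 CPM in Mki67-low tumours (median 101), with arms that overlapped in every group (-0.11 ± 0.09, adjusted p = 0.407). Cdkn1b, the p27 inhibitor, differed by -0.01 ± 0.06 (adjusted p = 0.933). Cdkn2c, the p18 inhibitor of Cdk4 and Cdk6, rose by 0.29 ± 0.07 (adjusted p = 0.00741), and so did Rbl1, the p107 pocket protein (0.25 ± 0.05, adjusted p = 0.00133). Cdkn1c, the p57 inhibitor, had a median of 1.10 CPM in the high and 2.40 CPM in the low arm and fell by 0.64 on the log2 scale (SE 0.18, adjusted p = 0.0186). None of the 16 p53 target genes passed by edgeR or by DESeq2, with 2 at an unadjusted p under 0.05, and of 13 quiescence genes 1 did, Zbtb20, a transcription factor, which rose by 0.18 ± 0.04 (adjusted p = 0.00741). The other 12 quiescence genes had values below 0, 3 of them at an unadjusted p under 0.05, and the median of the list was -0.10. Without AB1 non-responder 3 that median was -0.07 and 5 members were above 0. In the slope on Mki67 over all 48 tumours 8 of the 13 were called lower (median -0.30 per log2 unit), beside 18.5% of all genes tested in that fit. That fit holds AB1 non-responder 3, the tumour with the lowest Mki67 level. In it 3 of the 16 p53 target genes were called higher and 4 lower, where 2798 of the 16508 genes tested were called higher.

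Growth genes rose less than mitotic ones. Of 16 Myc and ribosome biogenesis genes 11 rose (median 0.18), led by Nop58 (0.29 ± 0.06, adjusted p = 0.00135) and Dkc1 (0.28 ± 0.05, adjusted p = 0.000878), which modify ribosomal RNA. Myc itself did not pass (0.17 ± 0.08, adjusted p = 0.142). Of 19 genes that make purines, pyrimidines and one-carbon units 11 rose (median 0.16), among them Pfas (0.28 ± 0.05, adjusted p = 0.0013). Nuclear pore and splicing genes rose in 13 of 16 cases (median 0.13). With the mean log2 CPM of the skeletal muscle markers as a term, 1 Myc, 2 purine and 3 splicing list genes were called higher. Their medians were then 0.14, 0.14 and 0.10, beside 1.84% of all genes called higher. In Renca alone 0 were called by edgeR (medians 0.10, 0.12 and 0.07), with 9, 11 and 6 at an unadjusted p under 0.05. In AB1 alone 5, 4 and 6 were called higher (medians 0.24, 0.18 and 0.17). The 28 cytosolic ribosomal protein genes had a median of 0.03 with 0 called by edgeR and 0 by DESeq2 (2 at an unadjusted p under 0.05). In the slope over all 48 tumours 12 of the 28 were called higher (median 0.10), beside 2798 of the 16508 genes tested in that fit. Of 22 oxidative phosphorylation genes 2 rose between the arms (median -0.01), beside 9.61% of all tested genes. Of 12 genes of the integrated stress response, which amino acid shortage sets off, 4 rose, namely Asns, Aars, Slc7a11 and Cth (0.18 to 0.30). Hypoxia and glycolysis genes had a median of -0.27 with 2 of 19 lower, beside 6.81% of all tested genes. The 2 were the glycolysis regulators Pfkfb3 and Pfkfb4. Pfkfb3 lost its call in 13 of the 32 fits that left out 1 library, AB1 non-responder 3 among them (adjusted p = 0.0655). The median of the 19 genes was -0.62 in AB1 alone, 0.12 in Renca alone, and -0.03 without AB1 non-responder 3.

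Among the 10 largest rises by the naming rule, Cenpe and Knl1 were the cell cycle genes, both of the kinetochore. Spp1, which encodes the secreted phosphoprotein osteopontin, had 2865 to 10955 CPM in Mki67-high tumours (median 4528), against 1719 to 5151 CPM in Mki67-low tumours (median 3443). All 16 high tumours lay above the low median of their own group, although the arms overlapped in 3 of 4 groups (0.60 ± 0.13, adjusted p = 0.00274). Xkr5, of the XK-related membrane protein family, had 10.6 to 20.4 CPM in the high and 3.72 to 12.6 CPM in the low arm of AB1, and 1.08 to 2.08 CPM in the high and 1.01 to 1.35 CPM in the low arm of Renca, and rose by 0.67 ± 0.13 (adjusted p = 0.0012). Fcrls, a mouse Fc receptor-like gene of macrophages and microglia, rose by 0.76 ± 0.20 (adjusted p = 0.0119). The highest estimate belonged to Ccl17, a chemokine of dendritic cells, with 1.49 to 31.4 CPM in Mki67-high and 0.954 to 12.0 CPM in Mki67-low tumours (0.94 ± 0.32, adjusted p = 0.0406). Its arms overlapped in all 4 groups, and the call was lost in 18 of the 32 fits that left out 1 library, among them the fit without AB1 non-responder 3 (adjusted p = 0.0544). Unc13c, Ptprq, Klhdc8a and Platr16 completed the 10. Of these, 3 were near 0 in Renca: in Renca tumours of either arm Unc13c had at most 0.492 CPM, Ptprq at most 0.0484 CPM and Klhdc8a at most 0.269 CPM. In AB1 non-responders Unc13c had 24.95 to 31.98 CPM in the high and 3.99 to 20.9 CPM in the low arm, without overlap, whereas in Renca non-responders its medians were 0.0962 CPM in the high and 0.254 CPM in the low arm. The call of Klhdc8a was lost in 22 of the 32 fits, AB1 non-responder 3 again among those left out (adjusted p = 0.0722).

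The largest falls were mostly genes of muscle. Myh3, the embryonic myosin heavy chain, had 0.0726 to 9.93 CPM in Mki67-high tumours (median 2.497), against 2.66 to 25.7 CPM in Mki67-low tumours (median 7.29), and fell by 1.44 on the log2 scale (SE 0.41, adjusted p = 0.0171). Lmod2, Xirp1, Casq2, Jsrp1 and Klhl40, genes of the sarcomere or of calcium release in muscle, fell by 1.28 to 1.37. In AB1 responders the medians of Xirp1 (15.9 CPM in the high and 9.58 CPM in the low arm) and Klhl40 (6.48 and 4.94 CPM) went the other way. Those of Lmod2, Casq2 and Jsrp1 were lower in the high arm there. Igf2, a growth factor of fetal tissues that is also made in regenerating muscle, had 0.579 to 6.92 CPM (median 1.97) in the high and 1.54 to 23.1 CPM (median 4.47) in the low arm and fell by 1.41 (SE 0.31, adjusted p = 0.00279). Cntfr, the ciliary neurotrophic factor receptor, fell by 1.54 (SE 0.48, adjusted p = 0.0267), and by 0.89 without AB1 non-responder 3 (adjusted p = 0.0103), which had the highest level, 11.9 CPM. Ccl21a, a chemokine of lymphatic vessels with near-identical copies, and Ucp3, a mitochondrial carrier of muscle, completed the 10. In AB1 responders Ucp3 had medians of 1.73 CPM in the high and 1.63 CPM in the low arm. Xirp1 lost its call without that tumour (adjusted p = 0.0717) and in 22 of the 32 fits.

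The 13 skeletal muscle markers had a median log2 fold change of -1.09, and 2 of them passed, Acta1 and Tnnc2. Their summed level ran over 44 to 2000 CPM in Mki67-high tumours (median 788) and 542 to 3513 CPM in Mki67-low tumours (median 1323). In AB1 responders the arms overlapped, with 141, 738, 825 and 1052 CPM in the high and 542, 728, 758 and 943 CPM in the low arm. The lowest Mki67-high tumour of each group had 43.8 to 141 CPM, below every Mki67-low tumour of the 32. Acta1, skeletal muscle actin, had 35.1 to 540 CPM (median 212) in the high arm and 182 to 748 CPM (median 375) in the low arm, and fell by 1.02 (SE 0.33, adjusted p = 0.0326). Its call was lost without AB1 non-responder 5, and that of Tnnc2 in 18 of 32 such fits. No marker of the list was at 0 in most libraries of either arm. With the mean log2 CPM of these markers added as a term, 288 genes (1.84%) were higher and 104 (0.663%) lower, and 69 of the 160 cell cycle genes were called higher, with a median of 0.27. In that fit edgeR called 0 lower genes in the MHC class II, NK, T cell, type II interferon and collagen lists. Their medians were -0.28, -0.36, -0.27, -0.43 and -0.07, with 5, 3, 2, 8 and 6 members at an unadjusted p under 0.05. Of the neutrophil list 1 gene was called lower. The part of muscle RNA in the other results beyond this fit was not tested. Fat markers (9 genes, median -0.61) had 0 called by edgeR and 0 by DESeq2, with 1 at an unadjusted p under 0.05. Skin markers (6 of 12 tested, median -1.29) had 0 called by edgeR, 2 by DESeq2 and 3 at an unadjusted p under 0.05.

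**Figure D3:**
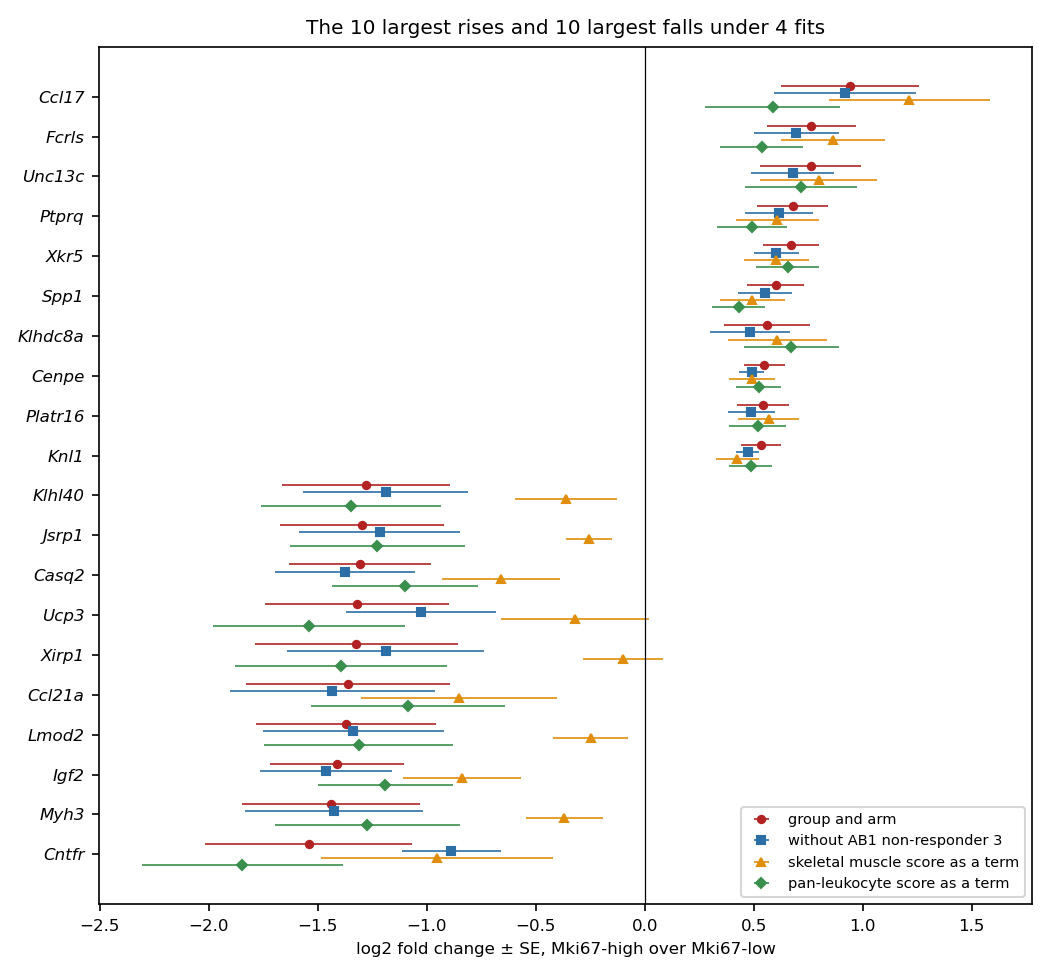
Log2 fold change of Mki67-high over Mki67-low tumours with its SE (x axis) for the 10 largest rises and 10 largest falls (rows) under 4 fits, marked by colour and shape. With a skeletal muscle score as a term, Myh3 moves to -0.37 and Lmod2 to -0.25, while Cenpe stays at 0.49 and Knl1 at 0.43.

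Among the lists of antigen presentation and lymphocytes, MHC class II had the largest share of lower calls. All 9 MHC class II presentation genes had values below 0 (median -0.34), and 5 fell: H2-Ab1, H2-Eb1, H2-Aa, H2-DMa and Ctss. H2-Ab1, a chain of the class II molecule I-A, had 165 to 1818 CPM in Mki67-high tumours (median 835), against 400.4 to 2251 CPM in Mki67-low tumours (median 1068), and fell by 0.49 (SE 0.13, adjusted p = 0.0129). In 15 of 16 cases a high tumour was under the low median of its own group, although the ranges of the arms overlapped widely across groups. Of 14 MHC class I presentation genes 1 fell, beside 6.81% of all tested genes: H2-D1, a class I heavy chain with near-identical relatives (median of the list -0.28). Its call was lost in 27 of the 32 fits that left out 1 library, AB1 non-responder 3 among them (adjusted p = 0.0532). Without that tumour 0 of the 14 passed by edgeR, with 6 at an unadjusted p under 0.05. The T cell coreceptor genes Cd8a and Cd8b1 were the called members among 20 T cell markers (median -0.37), and the other 18 did not pass. Cd8a had 2.07 to 57.5 CPM in the high arm (median 17.0) and 5.10 to 65.4 CPM in the low arm (median 34.7), and fell by 0.76 (SE 0.18, adjusted p = 0.00538). By group, Renca non-responders had 9.06, 9.55, 14.4 and 19.3 CPM in the high and 25.9, 26.3, 27.6 and 37.4 CPM in the low arm, without overlap, while AB1 non-responders had 2.07 to 7.95 CPM in the high and 5.10 to 9.59 CPM in the low arm, with overlap.

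Of 15 NK and cytotoxic cell genes 4 fell and 11 did not pass (median -0.48): Ccl5, a T cell attracting chemokine, Cst7, a cystatin of cytotoxic cells, and the NK receptors Klrc1 and Klrb1c. Klrc1 lost its call in 20 of the 32 fits that left out 1 library. Ccl5 had 9.36 to 363 CPM in Mki67-high tumours (median 41.8), against 15.9 to 486 CPM in Mki67-low tumours (median 76.9), and all 16 high tumours were under the low median of their own group (-0.89 ± 0.22, adjusted p = 0.00774). Of 19 type II interferon response genes 6 fell (median -0.47), among them Cxcl9, the interferon-gamma induced chemokine that draws CXCR3 bearing T cells (53.1 to 2086 CPM, median 267, in the high arm and 103 to 2195 CPM, median 652, in the low arm; -0.98 ± 0.30, adjusted p = 0.0257). The list's median was -0.13 in responders alone (2 of 19 at an unadjusted p under 0.05) and -0.84 in non-responders alone (19 of 19). By edgeR 0 were called in either fit. In AB1 responders the list summed to 16435.5 to 19342.8 CPM in the high and 16770.5 to 18166.2 CPM in the low arm. None of the 22 type I interferon genes passed by edgeR (median -0.19), 3 had an unadjusted p under 0.05, and 1 passed by DESeq2. Pdcd1, the PD-1 checkpoint receptor, fell by 0.54 (SE 0.17, adjusted p = 0.0287), a call lost without AB1 responder 1, AB1 non-responder 11, Renca non-responder 3 or Renca responder 8, while Cd274, its ligand PD-L1, did not pass (-0.48 ± 0.21, adjusted p = 0.108).

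Of the myeloid lists, 3 of 10 neutrophil genes fell (median -0.50), and 6 without AB1 non-responder 3, but 1 with flow cell as a term. They were led by Clec4d, a C-type lectin of myeloid cells (4.35 to 66.3 CPM, median 9.59, in Mki67-high tumours and 5.12 to 98.1 CPM, median 17.3, in Mki67-low tumours; -0.75 ± 0.15, adjusted p = 0.00187). Of the monocyte list 3 of 9 fell (median -0.25) and of the macrophage list 2 of 14 (median -0.16). Over all tested genes 6.81% were lower, the share to set beside the counts of lower genes in each of these lists. The dendritic cell list had 2 higher genes, Ccl17 and Tcf4, and a median of -0.11, and neither was called without AB1 non-responder 3. Pax5 was the called B cell gene (0.47 ± 0.12, adjusted p = 0.0105), but Cd79a and Ms4a1 had at most 2.42 CPM in all 32 tumours. Among 13 pan-leukocyte genes 2 fell, Itgb2 and Laptm5 (median -0.21), and their summed level ran over 1736 to 5929 CPM in the high arm (median 2516) and 2020 to 6857 CPM in the low arm (median 2832). With the mean log2 CPM of the pan-leukocyte markers as a term, 647 genes (4.12%) were higher and 363 (2.31%) lower, 128 of the 160 cell cycle genes were higher, and the class II, NK and type II interferon lists had medians of -0.12, -0.05 and -0.20 with 0 called by edgeR in each, and 4, 2 and 1 members at an unadjusted p under 0.05. Cd8a still passed in that fit (-0.46, adjusted p = 0.0368).

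Without AB1 non-responder 3 but with flow cell as a term, 3 class II, 2 NK and 2 T cell genes were called lower, and 0 of the type II interferon list, where 5 were called without that tumour alone. Collagen and fibroblast genes fell in 3 of 17 cases (median -0.22), beside 6.81% of all tested genes. These were Col1a1 (-0.47 ± 0.13, adjusted p = 0.0152), Sparc (-0.27 ± 0.07, adjusted p = 0.0139) and Thy1 (-0.36 ± 0.09, adjusted p = 0.0106). All 3 missed the threshold with flow cell as a term and AB1 non-responder 3 left out (adjusted p = 0.073, 0.0852 and 0.111). Pecam1, an endothelial adhesion molecule, did not pass (-0.15 ± 0.06, adjusted p = 0.0704), but did without AB1 non-responder 3 (-0.18, adjusted p = 0.0352).

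**Figure D4:**
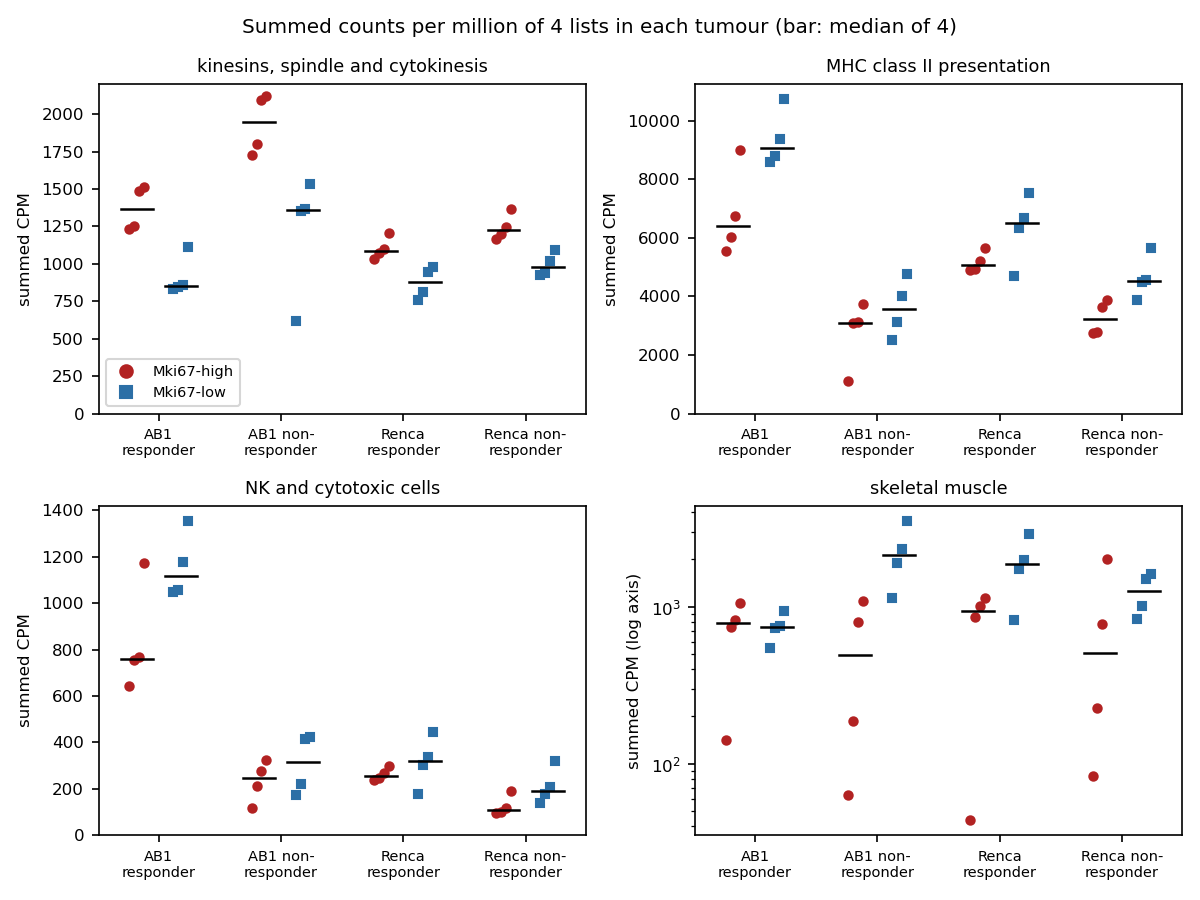
Summed CPM (y axes, log axis for skeletal muscle) of 4 lists in each tumour of the 4 groups, Mki67-high as red circles and Mki67-low as blue squares, with black bars at the median of 4. Spindle genes are separate in all groups, MHC class II and NK sums overlap in part, and muscle sums range over 44 to 2000 CPM in the high arm.

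The comparison was also made in each tumour line. In AB1 alone 740 genes (4.81%) were higher and 462 lower, and 109 of the 160 cell cycle genes rose, with a median log2 fold change of 0.47. In Renca alone 97 (0.626%) were higher and 31 lower, and 45 of the 160 rose, with a median of 0.22. Of the class II, NK, T cell and type II interferon lists, edgeR called 0 genes lower in AB1 alone. Medians there were -0.44, -0.48, -0.34 and -0.39, with 2, 3, 3 and 2 at an unadjusted p under 0.05. In Renca alone 2 class II genes and 0 of the others were called lower. Medians in Renca were -0.31, -0.50, -0.39 and -0.54, with 6, 7, 6 and 16 at an unadjusted p under 0.05. The spacing of the arms differed too, as the Mki67 values above show. The test of the difference itself called 0 of 15689 genes (0.00%) by edgeR, with 2310 at an unadjusted p under 0.05, and 239 by DESeq2. Of the 160, 0 were called and 30 had an unadjusted p under 0.05, and 155 had the higher estimate in AB1. Between responders and non-responders 0 genes differed in their change (0.00%) by edgeR, 764 at an unadjusted p under 0.05, and 1 by DESeq2. The median of the 160 was 0.33 among responders and 0.38 among non-responders.

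**Figure D5:**
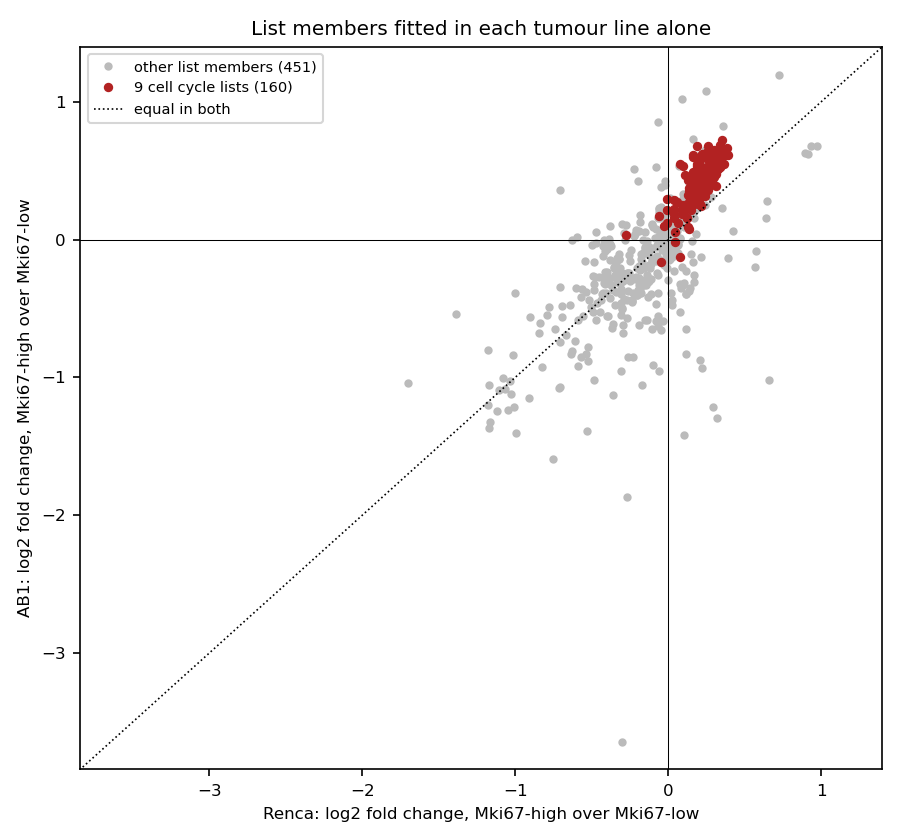
Log2 fold change of Mki67-high over Mki67-low tumours in Renca alone (x axis) and in AB1 alone (y axis) for list members fitted in both, cell cycle members in red and others in grey, with a dotted line of equal values. The red points have medians of 0.22 in Renca and 0.47 in AB1, and most lie above the line.

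The 16 tumours in neither arm took no part in the comparison. Over them, the slope of each gene on log2 Mki67 CPM was fitted with group as a term. No gene passed by edgeR, 1459 had an unadjusted p under 0.05, and 15 had a higher and 11 a lower slope by DESeq2. Of the 160 cell cycle genes 127 (79.4%) had a slope above 0, beside 48.0% of the 16641 genes tested, and 25 had an unadjusted p under 0.05. Top2a had a slope of 0.82 and Ccnb1 of 0.48 log2 units per log2 unit of Mki67, H2-Ab1 of -2.79 and Cd8a of -3.77. Igf2 (0.95) and Cntfr (5.62), which fell between the arms, had slopes above 0, and Ccl17, which rose, had one of -1.51, all with adjusted p of at least 0.606. The Mki67 range of these tumours is narrow (514 to 557 CPM in AB1 non-responders), which widens the error of every slope.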

How the data were processed

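RNA of 48 whole tumours was sequenced. The deposited table holds raw whole-number counts per gene, not normalised, for 39637 mouse Ensembl genes, of which 8466 had no count. Per the submitters' processing notes, HISAT2 2.0.4, StringTie 1.3.0 and bcl2fastq 2.18.0.12 were used, with human builds named although the identifiers are mouse. How reads were counted, on which mouse build and annotation, and whether strand was used is not given in the sources used here. Reads of near-identical copies (Klrc1, Hba and Hbb genes) or of overlapping genes may be shared. Gene positions are from GENCODE M21 (GRCm38), which matched 39461 identifiers, and promoters from RefSeq. Totals ran from 16.4 to 27.8 in units of 1000000 counts, and replicates are separate mice.

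Mki67 CPM is its count over the library total. The arms were set against each other by edgeR 4.0.16 under R 4.3.3 (TMM, filterByExpr by arm, quasi-likelihood F test, group and arm as terms, Benjamini-Hochberg at 0.05). Mki67 took part in the fits and in the adjustment of p, and was removed from the results afterwards. SE is the log2 fold change divided by the square root of F. Alternatives used DESeq2 1.42.0 and limma 3.58.1 (voom). Technical measures were permuted within groups, 100000 resamples, adjusted over 5 measures.

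Tumours were split by an outcome measured in them, so a p here says how firmly a gene goes with Mki67 in these libraries, not what a treatment does. The members and the 47 gene lists were chosen with earlier results of these data known. Named genes are the 10 largest rises and 10 largest falls among passing genes with mean log2 CPM of at least 1 (without Gm, Rik, clone and receptor segment names), the 3 passing members of smallest p in each list, a fixed panel, and any gene passing a test of differences. Others were named, after their values were seen, to account for list members. Same-numbered libraries of a tumour shared a lane in 24 of 24 pairs per the labels. Numbers 9 to 12 of AB1 all lay in a single lane, as did 9 to 12 of Renca, so a number does not stand for a lane. Deviations of same-numbered libraries from group means correlated by -0.118 to 0.494.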

Additional observations from a re-analysis of the deposited data

How the results depend on the processing

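The counts of 1507 higher and 1069 lower genes stayed within 1.5 times under DESeq2 scaling in edgeR, DESeq2, voom, a flow cell term, purity covariates, a collagen score, 3 and 3 tumours per group, and ranking by TMM-scaled CPM. Not all were the same genes: 1307 higher and 836 lower were shared with the flow cell term, and 1005 and 633 with purity covariates. With purity covariates 5 class II, 2 NK and 2 type II interferon genes were called lower. Of the 13 skeletal muscle genes 0 were called by edgeR in that fit, with 4 at an unadjusted p under 0.05. With the replicate block in voom 1645 were higher and 1243 lower, against 1640 and 1224 without it, so the block moved neither count by over 1.5 times. The block was the library number within a tumour line and not the lane. Leaving out each library in turn gave 1247 to 1703 higher and 749 to 1412 lower. Without the filter on low counts 974 were higher. The second flow cells alone gave 336 higher and 40 lower and the first 0 and 0 (2641 at an unadjusted p under 0.05). With 6 and 6 tumours per group 1869 were lower. Slopes over all 48 tumours called 2798 higher and 3050 lower, over the 16 in neither arm 0 and 0, or 15 and 11 by DESeq2, an alternative added after seeing the data. AB1 alone gave 740 and 462, Renca alone 97 and 31, responders alone 174 and 39, and non-responders alone 0 and 0 by edgeR (3138 at an unadjusted p under 0.05). A pan-leukocyte score gave 647 and 363 and a skeletal muscle score 288 and 104. Added after seeing the data, the fit without AB1 non-responders 3 and 7 had 704 lower, and that without AB1 non-responder 3 and with flow cell as a term 712 and 226. The causes were not tested, but several of these fits hold fewer tumours.

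The count of genes differing between AB1 and Renca, 0 by edgeR, was 2 under DESeq2 scaling, 239 by DESeq2 and 211 with flow cell as a term. It ran from 0 to 229 as libraries were left out, above 0 in 10 of 32 fits, and was 229 without AB1 non-responder 12, 144 without AB1 responder 8, 99 without AB1 responder 4, 39 without AB1 non-responder 7, 18 without AB1 non-responder 11, 11 without Renca responder 1, 9 without Renca responder 8, 7 without AB1 non-responder 3, 6 without AB1 non-responder 6 and 2 without AB1 non-responder 10. Between responders and non-responders it was 0 in each such fit and 1 by DESeq2.

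Over the 16 tumours in neither arm the slope turned against the direction between the arms for Ccl17 (-1.51), Unc13c (-0.27), Klhdc8a (-1.73), Platr16 (-0.53), Cntfr (5.62), Igf2 (0.95), Ccl21a (2.61), Ucp3 (1.31), Cdc23 (-0.0205), Cdkn2c (-0.0001), Mertk (0.0088), Sparc (0.39), Col1a1 (0.31), Mmrn1 (6.32), Ncam1 (1.37), Alpl (4.17), Plk1 (-0.21), Ccnd1 (-0.0486) and Foxm1 (-0.0119), and Tcf4 was -0.0199 in Renca alone. The adjusted p of these was at least 0.576.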

Other observations

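Red blood cell genes had positive estimates in all 5 tested members (median 0.77), none of which passed by edgeR, 4 with an unadjusted p under 0.05, and 2 passed by DESeq2. Without AB1 non-responder 3, 1 of the 5 passed by edgeR (median 0.88). The list's median was -0.01 in the first flow cells (6 members tested), 1.27 in the second and 0.15 with a skeletal muscle score as a term. Hbb-bs, a beta globin, had 10.3 to 163 CPM in Mki67-high tumours (median 33.1) and 12.5 to 50.3 CPM in Mki67-low tumours (median 24.0), with a log2 fold change of 0.83 ± 0.31 (adjusted p = 0.0596). Near-identical globin copies share reads.

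In 4 bins of summed exon length, shortest first, the cell cycle genes had median log2 fold changes of 0.31, 0.31, 0.36 and 0.40, and all other tested genes -0.0068, -0.0228, -0.0179 and 0.0172.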
